A study of Saccharomyces cerevisiae with 8 samples.

Results

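PRM7 (YDL039C), YDL038C and BSC1 (YDL037C) are 3 adjacent reading frames on the left arm of chromosome IV of budding yeast. They are 3 of the 6267 open reading frames (ORFs) on the arrays, and they were chosen by their measured log ratios, because these were lower in the mutants than in wild type. Their values against wild type therefore describe them and are not tested here. The arrays compared 2 mutants with wild type, a strain lacking SET2 (set2Δ) and a strain whose label gives deletions of SET2 and SIR4 (set2Δsir4Δ). Mutant and wild type alike were harvested during log phase from YPAD, a rich medium with adenine, at 30 °C. Each mutant has 4 arrays, on which its RNA competed with wild-type RNA. The mutant carried Cy3 on arrays 1 and 2 of set2Δ and on arrays 1 and 4 of set2Δsir4Δ, and Cy5 on the others. The labels do not give the parent strain, its mating type or whether arrays came from separate cultures, so the p-values below reflect array-to-array spread that may be purely technical.

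Set2 methylates a lysine of histone H3 behind elongating RNA polymerase II, and in yeast this mark recruits a histone deacetylase that keeps internal start sites within genes silent. Sir4 belongs to the Sir complex, which silences the spare mating-type cassettes and regions next to telomeres. PRM7 was named as a pheromone-regulated membrane protein gene. The PRM genes were defined as genes that mating pheromone induces, largely through the transcription factor Ste12. BSC1 was named for bypass of its stop codon, since ribosomes were reported to read through it, and its product resembles the flocculin Flo11, a cell surface glycoprotein of adhesion. In some other laboratory strains the region has been described as a longer continuous reading frame. In the RefSeq gene table of assembly R64, 2 of the 3 frames have entries of their own, and YDL038C is only a second name of PRM7. The arrays carried a separate spot for each of the 3. All 3 frames lie on the C strand, and so does PUS9 (YDL036C), the next gene beyond BSC1. Read in the direction of transcription the order is PUS9, BSC1, YDL038C, PRM7. Coordinates were not used, because no genome build is given for the array design.

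The spot of SET2 served as a check of the labels. It stood at -3.24 and -2.61 on the 2 set2Δ arrays that gave a value and at -1.69 ± 0.19 (SD, n = 4) in the set2Δsir4Δ group. The SIR4 spot averaged -0.07 ± 0.14 (SD, n = 4) in that group and gave no value in set2Δ. It thus went against the label, unless the spot lies outside the deleted part, which cannot be told here. Elsewhere the labelled groups did differ. All 6 tested genes specific to mating type a, given below, were lower in set2Δsir4Δ than in set2Δ (limma), against 1.71% of all tested ORFs. Neither of the 2 tested genes specific to mating type alpha was called. The part of SIR4 in this was not tested. The libraries are called set2Δsir4Δ below because they are labelled so, and every direction given for that group is a direction in libraries labelled set2Δsir4Δ. Arrays held 4613 to 5577 values, and 4554 ORFs had values on at least 3 arrays of each group and entered the tests. In set2Δ, arrays of opposite dye orientation correlated across ORFs at -0.07 to 0.29, against 0.70 to 0.75 for equal orientation. In set2Δsir4Δ the correlations were 0.72 to 0.83 for opposite and 0.84 to 0.89 for equal orientation. Dye thus weighed more in set2Δ, while the main fit used 1 dye term common to both groups. A dye term per group was run as an alternative. The number of arrays limits the precision of all values.

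PRM7, the frame transcribed farthest from PUS9, was below wild type on all 8 arrays. In set2Δ its log2(mutant / wild type) was -1.08, -0.64, -1.99 and -0.94 on arrays 1 to 4, with a mean of -1.16 ± 0.58 (SD, n = 4), or 2.24-fold lower. In the set2Δsir4Δ group it was -0.76, -0.69, -1.00 and -0.50, with a mean of -0.74 ± 0.21 (SD, n = 4), or 1.67-fold lower. The lowest of the 8 values was that of set2Δ array 3, and the groups overlapped.

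YDL038C was also below wild type on all 8 arrays. Its log2 ratios in set2Δ were -1.68, -0.58, -1.59 and -0.92, with a mean of -1.19 ± 0.53 (SD, n = 4), or 2.29-fold lower. In the set2Δsir4Δ group they were -2.73, -1.64, -1.46 and -1.10, with a mean of -1.73 ± 0.70 (SD, n = 4), or 3.32-fold lower. The lowest value of all was on set2Δsir4Δ array 1, and again the groups overlapped. The function of the product of this frame is not known.

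BSC1 had a value on 5 of the 8 arrays and did not enter the tests. Its log2 ratio was -2.86 on set2Δ array 3 and -1.00 on set2Δ array 4, both with the mutant in Cy5. In the set2Δsir4Δ group it was -2.39, -1.69 and -1.00 on arrays 1, 2 and 4. The means were -1.93 ± 1.32 (SD, n = 2), or 3.82-fold lower, and -1.69 ± 0.70 (SD, n = 3), or 3.23-fold lower. All 5 values were below 0, and the set2Δ mean rests on a pair of values that lie far apart.

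**Figure D1:**
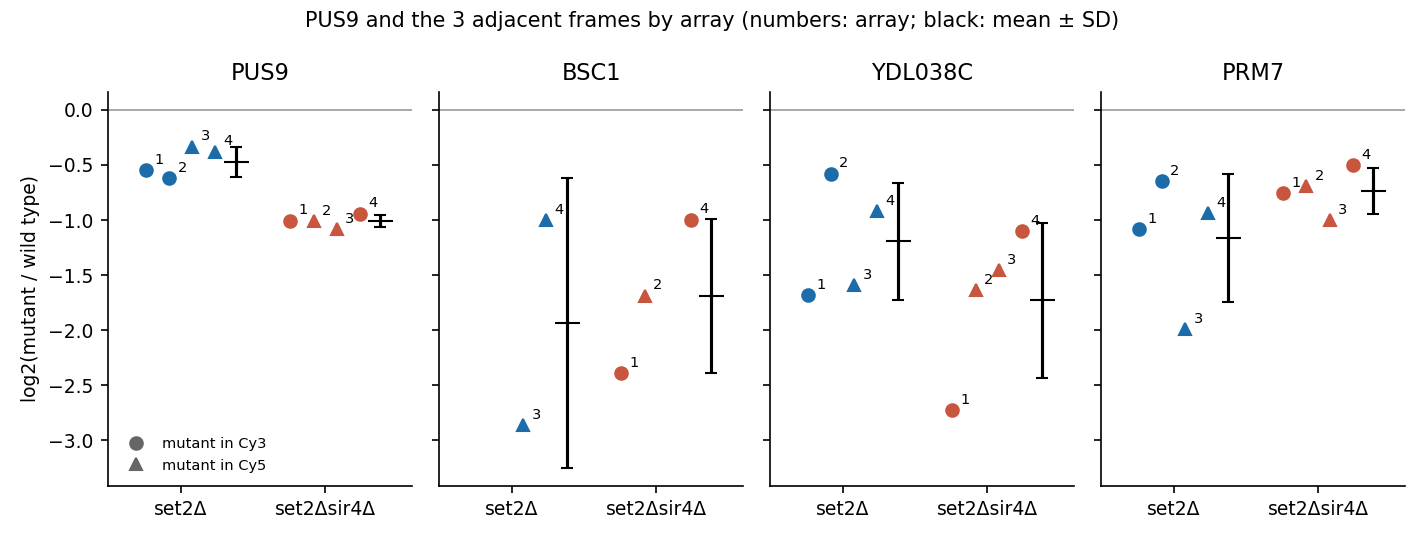
Each point is the log2(mutant / wild type) of 1 spot on 1 array (vertical axis), with the array number beside it, for PUS9, BSC1, YDL038C and PRM7 in the groups set2Δ and set2Δsir4Δ (horizontal axis). Circles have the mutant in Cy3 and triangles in Cy5, and black marks show mean ± SD. All points of the 3 frames lie below 0 with a wide scatter, and the points of PUS9 lie close together, between -0.33 and -0.62 in set2Δ and between -0.94 and -1.08 in set2Δsir4Δ.

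Both complete frames, PRM7 and YDL038C, were below 0 on all 4 arrays of each group, as were 18.0% of complete ORFs in set2Δ and 29.1% in set2Δsir4Δ. They entered the limma fit, where 13.0% of tested ORFs were called lower in set2Δ and 14.1% in set2Δsir4Δ at an adjusted p under 0.05. Since the frames were chosen for being low in these contrasts, nothing can be read from these signs or from their own calls, which are not given.

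The frames varied between arrays more than most ORFs did. After group and dye were taken out, the residual SD was 0.68 for YDL038C and 0.40 for PRM7, against a median of 0.20 over all tested ORFs. Among tested ORFs, 99.2% had a smaller residual SD than YDL038C and 91.2% a smaller one than PRM7. Within set2Δ the frames were ordered alike: arrays 1 and 3 were lower than arrays 2 and 4 for both YDL038C and PRM7, and BSC1 was lower on array 3 than on array 4. In set2Δsir4Δ, array 4 gave the value nearest to 0 for all 3 frames, and array 1 gave the lowest for BSC1 and YDL038C but not for PRM7. Deviations from the group means correlated at r = 0.47 between YDL038C and PRM7 over 8 arrays, which is a description of spots that share an array, its dyes and its wild-type RNA. The difference between dye orientations (mutant in Cy5 minus mutant in Cy3) was -0.60 for PRM7 and -0.12 for YDL038C in set2Δ, and -0.22 and 0.37 in set2Δsir4Δ. The part of dye in the low values was not tested beyond the model's dye term.

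The difference between the mutants was not used to choose the frames and could be tested. PRM7 was higher in set2Δsir4Δ than in set2Δ by 0.43 ± 0.22 (SE) on the log2 scale, with a 95% interval of -0.07 to 0.92, and did not pass (limma, adjusted p = 0.41). YDL038C was lower in set2Δsir4Δ by -0.54 ± 0.35 (SE), with an interval of -1.31 to 0.23, and did not pass either (limma, adjusted p = 0.50). Two-sided exact permutation tests of the 4 against 4 arrays gave p = 0.23 for PRM7 and p = 0.29 for YDL038C, where the smallest possible p is 0.029. Over all tested ORFs, 2.70% were called in this comparison. Leaving out 1 array moved the difference of PRM7 between 0.18 (without set2Δ array 3) and 0.60 (without set2Δ array 4). It moved that of YDL038C between -0.81 (without set2Δsir4Δ array 4) and -0.16 (without set2Δsir4Δ array 1). It was -0.27 for YDL038C without set2Δ array 2. With quantile normalization between arrays the difference was 0.82 for PRM7, and for YDL038C it turned to 0.11. Neither passed. BSC1 could not be tested, and its group means of -1.93 (n = 2) and -1.69 (n = 3) differed by less than the SD of either group. The intervals are wide, so these tests do not show that the mutants are alike at these frames.

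PRM7 and YDL038C, which RefSeq treats as 1 gene, had opposite signs in that difference, though not after quantile normalization. On the arrays labelled set2Δsir4Δ the log2 ratio of YDL038C was below that of PRM7 on 4 of 4 arrays, by -0.99 ± 0.68 (SD, n = 4). In set2Δ it was below on 1 of 4 arrays, and the mean difference was -0.03 ± 0.42 (SD, n = 4). This within-array difference was lower in set2Δsir4Δ by -0.96, with an exact permutation p = 0.086 (two-sided), and so did not pass. It was looked at after the values had been seen.

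PUS9 encodes a mitochondrial tRNA pseudouridine synthase and is the neighbour upstream of BSC1. It was not chosen by its values, and it was lower than wild type in both groups. In set2Δ its log2 ratios were -0.55, -0.62, -0.33 and -0.38 on arrays 1 to 4, and the fitted value was -0.47 ± 0.08 (SE, n = 4), 1.39-fold lower (limma, adjusted p = 0.0037). In the set2Δsir4Δ group they were -1.01, -1.01, -1.08 and -0.94, and the fitted value was -1.01 ± 0.08 (SE, n = 4), 2.01-fold lower (limma, adjusted p = 1.4e-05). Both calls against wild type held under every alternative that was run, with adjusted p from 0.00076 to 0.029 in set2Δ and from 5.3e-07 to 0.00058 in set2Δsir4Δ.

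The 4 set2Δsir4Δ values of PUS9 all lay below the 4 set2Δ values. The same was true of 4.52% of ORFs with values on all arrays. The difference was -0.54 ± 0.12 (SE), with a 95% interval of -0.80 to -0.28 (limma, adjusted p = 0.038), and the exact permutation p was 0.029, the smallest that 4 against 4 arrays can give. The limma call was close to the threshold. It was lost without any 1 of set2Δ arrays 1, 3 and 4 or set2Δsir4Δ arrays 1, 2, 3 and 4. It was lost, too, with no dye term (adjusted p = 0.061) and with a block for array number (adjusted p = 0.20). Over all alternatives the adjusted p ran from 0.010 to 0.20. PUS9 had a residual SD of 0.10, smaller than that of most ORFs, so it did not share the scatter of the frames beside it.

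**Figure D2:**
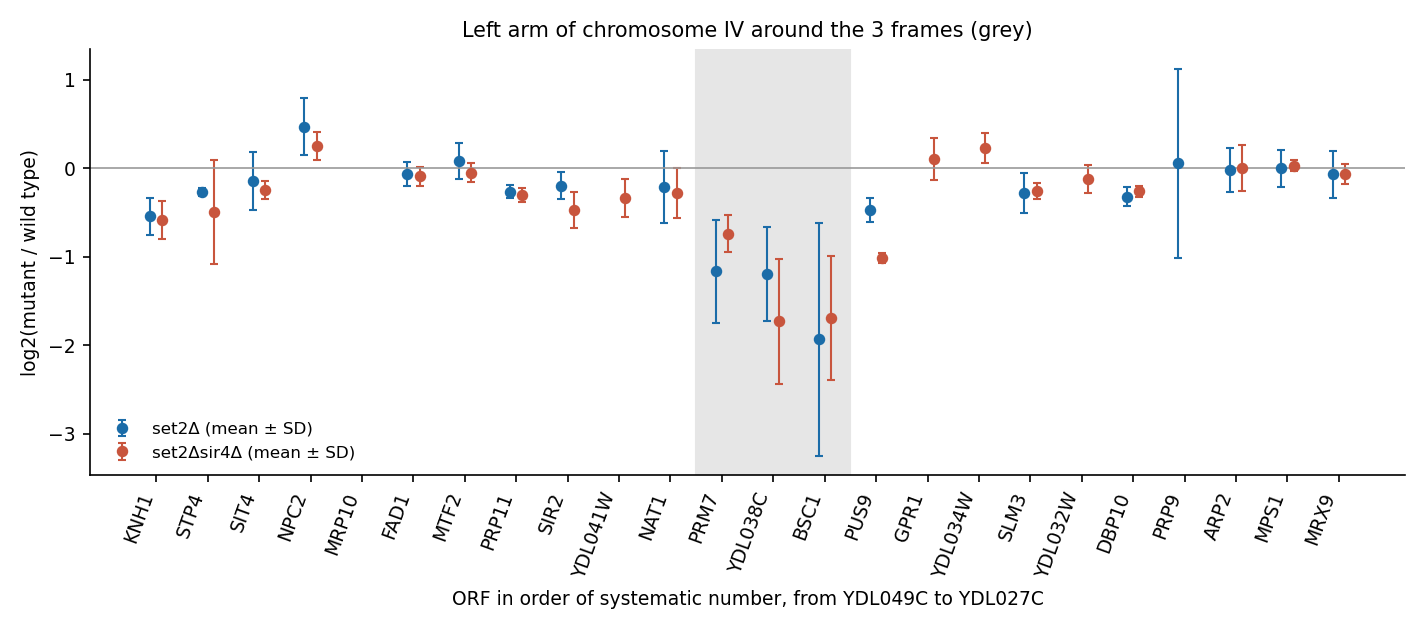
The vertical axis gives the mean log2(mutant / wild type) ± SD over up to 4 arrays for each ORF from YDL049C (KNH1) to YDL027C (MRX9) in order of systematic number (horizontal axis), in set2Δ (blue) and on the arrays labelled set2Δsir4Δ (red). The 3 frames on grey lie between -1.93 and -0.74, PUS9 beside them lies at -0.47 and -1.01, and the other ORFs with values on at least 3 arrays of each group lie between -0.58 and 0.47.

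On the other side, next to PRM7, lies NAT1, a subunit of the NatA N-terminal acetyltransferase. NAT1 was not tested, with log2 ratios of 0.07 and -0.50 on 2 set2Δ arrays and from -0.50 to 0.12 on the set2Δsir4Δ arrays. Its set2Δsir4Δ mean was -0.28 ± 0.28 (SD, n = 4), and none of its 6 values was as low as the mean of PRM7 in either group. The ORF after it, YDL041W, had values only in the set2Δsir4Δ group (-0.34 ± 0.21, SD, n = 4). SIR2, the histone deacetylase of the Sir complex, follows. It was at -0.20 ± 0.10 (SE, n = 4) in set2Δ, which did not pass (limma, adjusted p = 0.17), and at -0.47 ± 0.10 (SE, n = 4) in set2Δsir4Δ, which did (limma, adjusted p = 0.0061), though not without set2Δsir4Δ array 1 (adjusted p = 0.054). PRP11, a splicing factor next to SIR2, was at -0.25 in set2Δ and -0.30 in set2Δsir4Δ. Beyond PUS9, the glucose receptor gene GPR1 and the ORF YDL034W had values only in set2Δsir4Δ, at 0.11 ± 0.24 and 0.23 ± 0.17 (SD, n = 4), and SLM3, a mitochondrial tRNA-modifying enzyme, stood at -0.28 and -0.26.

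Of 21 ORFs within 10 systematic numbers on either side, 14 were tested. In set2Δ, 4 of them were called lower and 1 higher, against 13.0% lower and 11.8% higher of all tested ORFs, and their median was -0.17 against -0.01. The lower ones were PUS9, SLM3, the ribosome assembly helicase DBP10 (-0.32 ± 0.08, SE) and the cell wall glucan gene KNH1 (-0.54 ± 0.13, SE, n = 3), and the higher one was the sterol carrier NPC2 (0.47 ± 0.10, SE). In set2Δsir4Δ, 5 were called lower (PUS9, SIR2, PRP11, DBP10 and KNH1) and 0 higher by limma, where 1 was higher at an unadjusted p under 0.05, against 14.1% and 11.0% of all tested ORFs. Their median was -0.25 against -0.03. Only PUS9 of the 14 was called between the mutants, where 2.70% of all tested ORFs were, subject to the arrays named above. With set2Δ array 1 left out 1 neighbour was called lower in set2Δ, and with array 4 left out 2 were. With set2Δsir4Δ array 1 or array 3 left out, 2 or 3 neighbours respectively were called lower in that group. Over all alternatives in set2Δ, adjusted p (limma) reached 0.24 for SLM3 and KNH1, 0.081 for DBP10 and 0.059 for NPC2. In set2Δsir4Δ it reached 0.18 for DBP10, 0.12 for PRP11 and 0.054 for SIR2. All of these calls were thus lost under at least 1 alternative, while that of KNH1 in set2Δsir4Δ held wherever it was tested.

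The other PRM genes did not share 1 pattern. Of 9, 6 were tested, and 2 were called lower in each group, where 13.0% (set2Δ) and 14.1% (set2Δsir4Δ) of all tested ORFs were. In set2Δ, PRM1, which acts in membrane fusion during mating, was lower at -0.53 ± 0.12 (SE), and PRM9 was lower at -0.32 ± 0.09 (SE), while 0 were called higher by limma and 1 was higher at an unadjusted p under 0.05. Without set2Δ array 2, or without array 4, 0 PRM genes were called lower in set2Δ. PRM3, which acts in nuclear fusion, was at 0.13, PRM4 at -0.18, PRM5 at 0.31 and PRM8 at -0.12 (n = 3), and these did not pass. The median of the 6 was -0.15 against -0.01 over all tested ORFs.

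In the set2Δsir4Δ group PRM1 and PRM5 were lower than wild type. PRM1 stood at -1.54, -1.27 and -1.15 on arrays 1, 2 and 4 and at -1.26 ± 0.14 (SE, n = 3) in the fit. PRM5 stood at -1.40, -1.10 and -1.18 on the same arrays and at -1.23 ± 0.13 (SE, n = 3) in the fit. PRM3, PRM4, PRM8 and PRM9 were at 0.05, -0.30, -0.18 and -0.20 and did not pass, and 0 PRM genes were called higher. At an unadjusted p under 0.05, 4 of the 6 were lower, PRM4 and PRM9 among them, and 0 were higher. With each mutant fitted alone, where more ORFs and another spread enter, 5 other PRM genes were called lower and 1 higher. The median of the 6 was -0.25 against -0.03. Between the mutants only PRM5 of the 6 passed, lower by -1.55 ± 0.17 (SE) in set2Δsir4Δ (limma, adjusted p = 0.00066). Of all tested ORFs, 2.70% were called in that comparison. PRM1 was lower by -0.73 ± 0.19 (SE), with adjusted p = 0.088. Among untested members, PRM2 stood at 0.20 to 0.60 on 4 set2Δ arrays and at -0.16 and -0.32 on 2 set2Δsir4Δ arrays. PRM6 had 3 values, from -0.70 to -0.23, and PRM10 had 3 in set2Δsir4Δ, from 0.12 to 0.52.

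**Figure D3:**
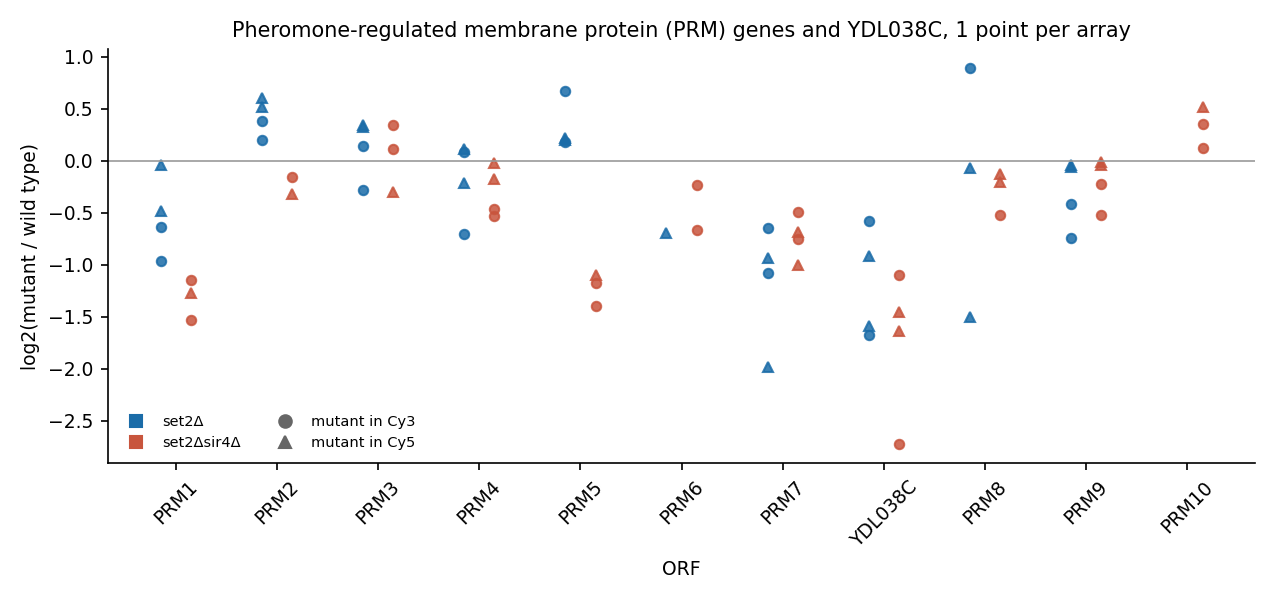
Each point is the log2(mutant / wild type) on 1 array (vertical axis) for the PRM genes and YDL038C (horizontal axis), in set2Δ (blue) and on the arrays labelled set2Δsir4Δ (red), with circles for the mutant in Cy3 and triangles for the mutant in Cy5. PRM7 and YDL038C lie below 0 on all 8 arrays, and the PRM5 points lie between 0.17 and 0.67 in set2Δ and between -1.40 and -1.10 in set2Δsir4Δ.

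The remaining pheromone-induced genes give the setting for a gene named after pheromone. In set2Δ, 0 of 12 were called lower by limma (2 at an unadjusted p under 0.05) and 3 higher, against 13.0% and 11.8% of all tested ORFs. These 3 were FIG1, a membrane protein of mating cells (0.52 ± 0.16, SE), AFR1 (0.42 ± 0.11, SE) and the phosphatase MSG5 (0.36 ± 0.09, SE). The lower count rose to 2 without set2Δ array 2 and to 1 without set2Δsir4Δ array 2, and the higher count fell to 1 without set2Δ array 2 and to 0 without set2Δ array 4. In set2Δsir4Δ, 8 of 12 were lower and 1, AFR1, was higher, against 14.1% and 11.0% of all tested ORFs. AFR1 was not called without set2Δsir4Δ array 1, 2 or 4. The adhesin subunit AGA1 stood at -2.07 ± 0.14, the karyogamy factor KAR4 at -1.99 ± 0.16, the signalling regulator SST2 at -1.57 ± 0.11 and FIG1 at -1.27 ± 0.16 (SE, n = 4 each). STE12, which encodes the transcription factor through which pheromone acts, was at -0.22 ± 0.10 in set2Δ (SE, n = 4), which did not pass, and lower at -0.93 ± 0.11 in set2Δsir4Δ (SE, n = 3). The medians of the list were 0.06 in set2Δ and -0.79 in set2Δsir4Δ, against -0.01 and -0.03 over all tested ORFs. Between the mutants 7 of the 12 were called lower and 0 higher (0 also at an unadjusted p under 0.05), where 1.71% of all tested ORFs were called lower.

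Genes that mark haploid mating types moved with the set2Δsir4Δ label. All 6 tested a-specific genes were lower there (median -4.62), among them BAR1, STE2, STE6 and AGA2 between -5.76 and -3.29, and so were all 8 tested haploid-specific genes (median -2.62), among them STE4, GPA1, NEJ1 and FAR1 between -4.11 and -2.54. Of all tested ORFs, 14.1% were lower there. In set2Δ, 2 of the 6 (AGA2 and ASG7) and 1 of the 8 (GPA1) were lower, against 13.0% of all tested ORFs, so the haploid-specific count was near the background. The haploid-specific count in set2Δ became 2 without set2Δ array 3 or set2Δsir4Δ array 4, and 0 without set2Δ array 4. Of the 4 alpha-specific genes, MF(ALPHA)2 (0.66 in set2Δ and 0.40 in set2Δsir4Δ) and SAG1 (0.52 and 0.31) were tested. Of all tested ORFs, 11.8% were called higher in set2Δ and 11.0% in set2Δsir4Δ. Both genes were higher in set2Δ but MF(ALPHA)2 alone in set2Δsir4Δ. MF(ALPHA)2 was not called in set2Δ without set2Δ array 4, nor in set2Δsir4Δ without array 1 or array 3 of that group, while SAG1 passed there without set2Δ array 1 or 3 or set2Δsir4Δ array 2. STE3, the alpha-specific receptor of a-factor, had no value in set2Δ and was not tested, and it read -0.92, -1.69 and -0.57 on set2Δsir4Δ arrays 1, 2 and 4, opposite in sign to those genes. Without the filter on missing values 1 alpha-specific gene was called lower in set2Δsir4Δ, against 0 with it. Between the mutants, where 1.71% of all tested ORFs were called lower, 6 a-specific and 7 haploid-specific genes were lower. Neither alpha-specific gene was called, where 2.70% of all tested ORFs were called in either direction. Beside these shifts, PRM7 was higher in set2Δsir4Δ than in set2Δ by 0.43 and YDL038C was lower by -0.54. Both intervals include 0, and neither difference passed. In RNA from whole cultures, fewer cells that express a gene and less of its RNA per cell cannot be told apart. The part of mating type in the values of PRM7, YDL038C and BSC1 was not tested.

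**Figure D4:**
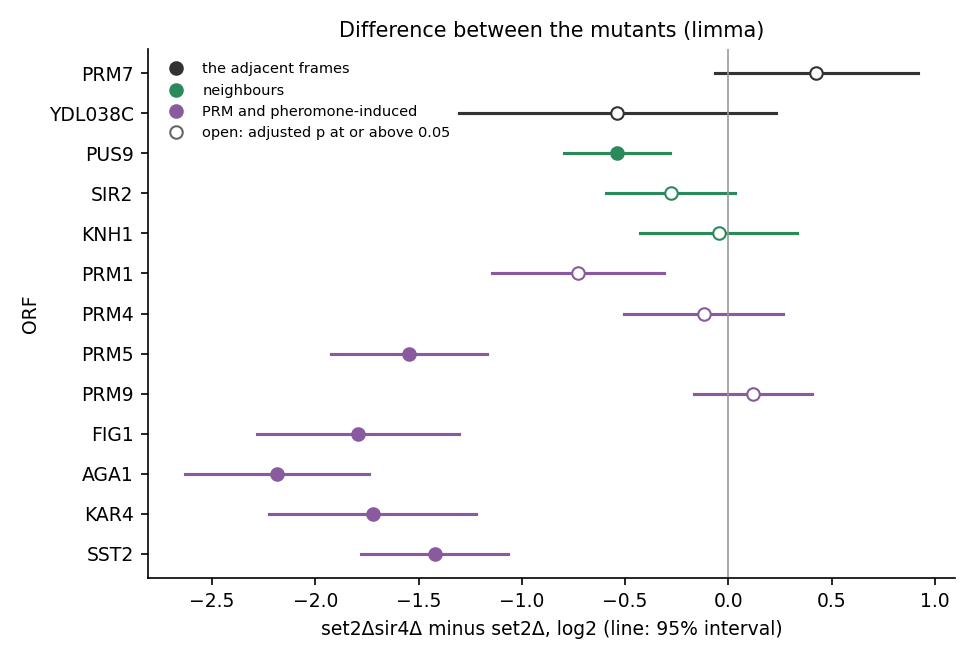
The horizontal axis gives the fitted log2 difference set2Δsir4Δ minus set2Δ (labels of the arrays), with its 95% interval as a line, for PRM7 and YDL038C (black), 3 neighbours (green) and PRM or pheromone-induced genes (purple) on the vertical axis. Filled points passed limma's test at an adjusted p under 0.05. PUS9 at -0.54, PRM5 at -1.55 and the pheromone-induced genes FIG1, AGA1, KAR4 and SST2 are filled, and PRM7 at 0.43 and YDL038C at -0.54 are open with intervals that include 0.

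BSC1 can also be set beside genes it shares a name or a type of product with. The other BSC genes, likewise reported for stop codon readthrough, were not low. Of 3 tested, limma called 0 in set2Δ (0 also before adjustment), while 2 were higher in set2Δsir4Δ, BSC5 at 0.90 ± 0.11 and BSC3 at 0.79 ± 0.25 (SE, n = 4 each), where 11.0% of all tested ORFs were called higher. BSC6 was at 0.01 and -0.19. BSC3 was not called without set2Δ array 4 or any 1 of the set2Δsir4Δ arrays, and it was called in set2Δ without set2Δ array 2. Of the untested, BSC2 averaged 0.09 (n = 4) and -0.04 (n = 2), and BSC4 averaged 0.16 ± 0.56 (SD, n = 3) in set2Δsir4Δ. Between the mutants 0 of the 3 were called, where 2.70% of all tested ORFs were. At an unadjusted p under 0.05, 1 was higher, and BSC5 was called higher without set2Δ array 3.

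Among 9 tested genes for FLO-type and mucin-like surface proteins, 3 were higher and 0 lower in set2Δ (0 lower also at an unadjusted p under 0.05), and 4 were higher and 1 lower in set2Δsir4Δ. Of all tested ORFs, 11.8% and 11.0% were called higher in these groups, and 13.0% and 14.1% lower. HPF1 stood at 1.28 ± 0.26 and 2.76 ± 0.26, and CSS1 at 1.17 ± 0.24 and 2.36 ± 0.24 (SE, n = 4). In set2Δ the values of HPF1 differed by dye, with a mean of 0.33 with the mutant in Cy3 and 2.22 with it in Cy5, and HPF1 was not called there without set2Δ array 4 (limma, adjusted p = 0.056). SAG1 was the other higher gene in set2Δ, FLO5 (0.50 ± 0.16) and FLO9 (0.41 ± 0.10) the others in set2Δsir4Δ, and AGA1 the lower one. The higher count was 5 in set2Δ without set2Δ array 3, and 2 in set2Δsir4Δ without array 4 of that group. Members of this family resemble each other in sequence, so their spots can share signal. FLO11, the gene BSC1 resembles, had values on only 2 arrays, -0.05 and 0.67 on set2Δsir4Δ arrays 2 and 4, where BSC1 read -1.69 and -1.00. Between the mutants 1 gene, AGA1, was lower and 0 higher, where 3 were higher at an unadjusted p under 0.05. Of all tested ORFs, 1.71% were called lower there and 2.70% in either direction. AGA1 is also counted among the pheromone-induced genes above. Without set2Δ array 1, or without set2Δsir4Δ array 3, 1 gene was called higher.

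Of genes in the Set2 and Sir pathways, EAF3, a subunit of the deacetylase complex that reads the Set2 mark, was at -0.17 ± 0.09 in set2Δ and 0.10 ± 0.09 in set2Δsir4Δ (SE, n = 4) and did not pass. RCO1 of the same complex had 1 value in set2Δ (0.25) and averaged 0.22 ± 0.14 (SD, n = 3) in set2Δsir4Δ, and SIR3 had none. With SIR2, 2 genes of this list were tested. In set2Δsir4Δ 1 was called lower, or 0 without array 1 of that group, where 14.1% of all tested ORFs were.

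Likeness was measured over 8 arrays, as the root mean square difference between the values of an ORF and the mean of the frames on each array. That mean covers 3 frames on 5 arrays and only PRM7 and YDL038C on the 3 arrays where BSC1 had no value. The 8 ORFs most like the frames among 3424 others with complete values had differences of 0.61 to 0.73, where the median was 1.41. The nearest was NSR1, a nucleolar protein of ribosome assembly, at -0.76 ± 0.10 in set2Δ and -1.03 ± 0.10 in set2Δsir4Δ (SE). The transcription factor TYE7, a regulator of glycolytic genes, followed at -0.55 ± 0.15 and -1.49 ± 0.15. The acid phosphatases PHO11 (-0.85 and -1.19) and PHO12 (-0.97 and -1.15) are near-identical and may share signal. DBP2, an RNA helicase (-0.62 and -1.01), PXR1 (-0.57 and -0.93) and CGR1 (-0.50 and -0.94), both of ribosomal RNA processing, and DFP4 of the DUP240 family (-0.99 and -0.83) complete the 8. None of the 8 is a neighbour of the frames, but PUS9, with a difference of 0.82, ranked 22 among the 3424. These likenesses describe values on the same 8 arrays and carry no test.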

How the data were processed

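The deposited table holds 1 value per ORF and array. The labels give the dye of each channel, and the authors' normalization and spot filters are not given in the sources used here. The deposited values were taken as log2 ratios: with base 2 and Cy5 over Cy3 before turning, the gaps between low ratios came out as whole steps in 100% of cases (tolerance 0.02). Natural or decimal logarithms, or the opposite sign, gave at most 8.96%. All values therefore stand as log2(mutant / wild type), and they were used without further normalization. Of 6267 ORFs, 5856 were named through the RefSeq gene table by locus tag. No array pair held identical values.

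The 4554 ORFs measured on 3 or more arrays of each group were fitted across all genes with limma 3.58.1 in R 4.3.3 (a mean per group, 1 dye term, eBayes, prior 5.48 degrees of freedom) with Benjamini-Hochberg adjustment, and an adjusted p under 0.05 was called. Both mutants share wild type as the reference, which was hybridised on every array and not as a separate sample. Its own spread enters the tests only as far as its RNA differed between arrays, which the labels do not give. The fit was tested on simulated data. The frames and gene lists (neighbours, PRM, pheromone-induced, a-specific, alpha-specific, haploid-specific, BSC, surface proteins, Set2 and Sir proteins) were chosen with earlier results of these data known. Named were the frames, the 4 nearest neighbours on each side and others that were called, every PRM, BSC, Set2 and Sir gene, up to 4 per other list with the smallest p in set2Δsir4Δ, and the 8 most like ORFs. AFR1, MSG5, ASG7, STE12, FLO5 and FLO11 were named after their values were seen.

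Alternatives were centred arrays, quantile normalization, no dye term, a dye term per group, no filter, complete ORFs, each mutant alone, a block for array number, and each array left out.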

Additional observations from a re-analysis of the deposited data

Results flagged for a closer look

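PUS9 differed between the mutants by limma (set2Δsir4Δ minus set2Δ, -0.54), and so did PRM5 (-1.55) and TYE7 (-0.94). The mating genes named above also differed by limma: AGA1 (-2.19), SST2 (-1.42), KAR4 (-1.72), FIG1 (-1.79), BAR1 (-5.65), STE2 (-5.53), STE6 (-3.13), AGA2 (-2.98), STE4 (-3.67), GPA1 (-3.65), NEJ1 (-2.39) and FAR1 (-2.52). The call of TYE7 lay at the threshold (limma, adjusted p = 0.0498) and was lost under most alternatives, with an adjusted p up to 0.16, and that of PUS9 was lost under those named above. PRM7 and YDL038C did not pass this test, and BSC1 was not tested.

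In 8 of 99 groups of 4 arrays, 1 array stood apart by Dixon's criterion, which chance meets in about 1 of 20 groups. No group of PRM7 or YDL038C was among them. In set2Δ these values were 0.056 for SLM3 (array 3), 0.67 for PRM5 (array 1), -0.58 for STE4 (array 2), -0.46 for NSR1 (array 4), -1.06 for DBP2 (array 1) and -0.20 for PXR1 (array 2). In set2Δsir4Δ they were -0.39 for SLM3 and -0.40 for SIT4, both on array 1.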

How the results depend on the processing

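PRM7 and YDL038C kept their direction against wild type under every alternative run and moved by less than 1 SD. So did BSC1 under the alternatives for which its value was taken. None was taken without a dye term, with a dye term per group, with the block, with each mutant alone or with complete ORFs. The frames were chosen for being low, and all their values lie below 0, so nothing can be read from the kept directions. Neither PRM7 nor YDL038C was called between the mutants under any alternative, but quantile normalization turned the difference of YDL038C to 0.11. Leaving out 1 array gave 208 to 713 ORFs lower in set2Δ, 318 to 729 in set2Δsir4Δ and 64 to 170 called between the mutants, against 593, 644 and 123. The first fell to 360 and 208 without set2Δ array 1 and array 4, the second to 318 and 420 without set2Δsir4Δ array 1 and array 4, and the third to 75 without set2Δ array 4 and to 64 and 70 without set2Δsir4Δ array 1 and array 4. The same step gave 1 to 3 neighbours lower in set2Δ, 2 to 7 in set2Δsir4Δ and 0 to 1 called between the mutants. Pheromone and mating genes here are the other PRM, pheromone-induced, a-specific, alpha-specific and haploid-specific lists together. Of 34 tested, 5 were lower in set2Δ, near the 13.0% of all tested ORFs. With 1 array left out this was 2 to 6 (2 without set2Δ array 4). Of 12 tested surface and BSC genes, 3 were higher in set2Δ and 6 in set2Δsir4Δ, against 11.8% and 11.0% of all tested ORFs. With 1 array left out these were 2 to 5 (5 without set2Δ array 2 or 3) and 3 to 7 (3 without set2Δsir4Δ array 4). With no dye term the ORF counts were 354 lower in set2Δ and 79 between the mutants, with 0 neighbours called between them and 3 pheromone and mating genes lower in set2Δ. With a dye term per group they were 274 between the mutants and 8 pheromone and mating genes lower in set2Δ. With each mutant alone, where more ORFs and another spread enter, 1374 ORFs and 10 neighbours were lower in set2Δsir4Δ. With complete ORFs only, which tests fewer genes, 3 neighbours were lower in set2Δsir4Δ and 2 pheromone and mating genes in set2Δ. Deviations of same-numbered arrays correlated at -0.21 to 0.21, positive for equal and negative for opposite dye orientation. With dye taken out they correlated at -0.07 to 0.07. Arrays of unlike number were not compared, so whether the array number pairs the samples cannot be told from this. With that number as a replicate block, 273 ORFs were lower in set2Δ, 401 in set2Δsir4Δ and 61 called between the mutants, with 1, 3 and 0 neighbours. The cause of the other moves was not tested. Of 2270 values of 49 other tested ORFs under the alternatives, 86 lost a call, 43 gained one and 0 reversed. These 49 include some neighbours that are not named above and leave out AFR1, MSG5, ASG7, STE12 and FLO5. Spot intensities were not used here, so signal over background could not be judged, and BSC1 with 5 values has the least support.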
